A study of Mus musculus with 2 samples.

Results

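The microRNA genes Mir208a, Mir208b and Mir499 each sit in an intron of a myosin heavy chain gene, Myh6, Myh7 and Myh7b. They were chosen by their names in the GENCODE M21 annotation and make up 3 of the 2202 microRNA genes counted. The data come from microRNA sequencing of total RNA from C2C12 myocytes, a mouse muscle cell line of C3H origin. The myoblasts had been left to differentiate for 72 h before RNA was taken, and no other treatment or genotype is given in the labels. The series holds 1 group of 2 libraries, numbered as biological replicates 1 and 2, so no test between conditions was possible, and what follows describes levels in these myocytes and their spread. The labels give the replicates separate biosamples from the same line and do not say whether the cultures were differentiated apart, so the spread can be technical in part.

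Mir208a, Mir208b and Mir499 are counted among the myomiRs, microRNAs enriched in muscle. These 3 are cut out of the introns of muscle myosin genes and so tend to appear where their host is transcribed. In mice miR-208a is the cardiac member, since its host Myh6 encodes the fast cardiac myosin alpha. miR-208b accompanies Myh7, which encodes the slow myosin of type I fibres and of the fetal ventricle, and miR-499 accompanies Myh7b, a more distant relative. In mouse muscle miR-208b and miR-499 are known to favour the slow fibre programme by repressing factors such as Sox6, a repressor of slow muscle genes.

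The mature sequences are shown because they define the family and because the counts of closely similar hairpins have to be told apart. They are RefSeq's sequences for GRCm38.p6, the arm usually given as the active strand of each hairpin, written 5′ to 3′ with the seed (bases 2 to 8) in capitals.
miR-208a-3p: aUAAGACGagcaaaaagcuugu
miR-208b-3p: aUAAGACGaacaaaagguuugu
miR-499-5p: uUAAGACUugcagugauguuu
The seed is identical in miR-208a-3p and miR-208b-3p, and miR-499-5p shares it except for its last base. Bases 2 to 7 are the same in all 3. Of 1738 mature mouse microRNAs in the RefSeq table, 3 carry these bases at positions 2 to 7, and they are the arms printed here, so by this definition the hairpins form a seed family of their own.

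miR-208a-3p and miR-208b-3p are identical at 19 of 22 positions. Counted from the 5′ end, and with the base of miR-208a-3p first, they differ by G10A, A16G and C18U. The longest run of bases they share is 9. By contrast, miR-499-5p matched miR-208a-3p at 12 of 21 positions and miR-208b-3p at 10 of 21 when the 5′ ends were aligned without gaps. The hairpins below show where the arms lie, with both mature arms in capitals. The active arm is the 3′ one in the Mir208 hairpins and the 5′ one in Mir499.
Mir208a: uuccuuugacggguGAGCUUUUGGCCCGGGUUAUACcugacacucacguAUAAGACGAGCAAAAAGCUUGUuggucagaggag
Mir208b: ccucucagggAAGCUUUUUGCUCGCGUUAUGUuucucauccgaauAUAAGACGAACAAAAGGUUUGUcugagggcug
Mir499: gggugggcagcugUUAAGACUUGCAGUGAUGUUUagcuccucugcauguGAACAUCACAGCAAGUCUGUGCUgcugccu
The longest run shared by the Mir208a and Mir208b hairpins is 10 bases, and each shares a run of 6 bases with Mir499. None of the 3 shares a stretch of 20 bases with any annotated microRNA hairpin on either strand. That sets them apart from 89 of the 314 detected genes, which do share such a stretch and whose reads may be split between copies or left unassigned. The deposited counts do not separate the arms of a hairpin, so every value below is for both arms together.

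In mm10 coordinates, Mir208a (ENSMUSG00000065432.1) lies at chr14:54949060-54949142 on the minus strand. It falls within intron 29 of Myh6, a transcript of 39 exons, and starts 195 bases after the exon upstream of it. Mir208b (ENSMUSG00000077928.1) lies at chr14:54975700-54975776, also on the minus strand, within intron 31 of Myh7, a transcript of 41 exons, and 102 bases from the upstream exon. Both hairpins are thus followed by 10 exons of their host. Their host genes are tandem neighbours 3756 bases apart, and the hairpins are separated by 26557 bases. Mir499 (ENSMUSG00000076312.1) lies on another chromosome, at chr2:155622880-155622958 on the plus strand. It is placed further upstream in its host, in intron 19 of Myh7b with 23 of 42 exons after it. The 3 introns are short, with 542 bases in Myh6, 461 in Myh7 and 481 in Myh7b, and each hairpin is transcribed in the same direction as its host. No other microRNA gene overlaps any of them.

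**Figure D1:**
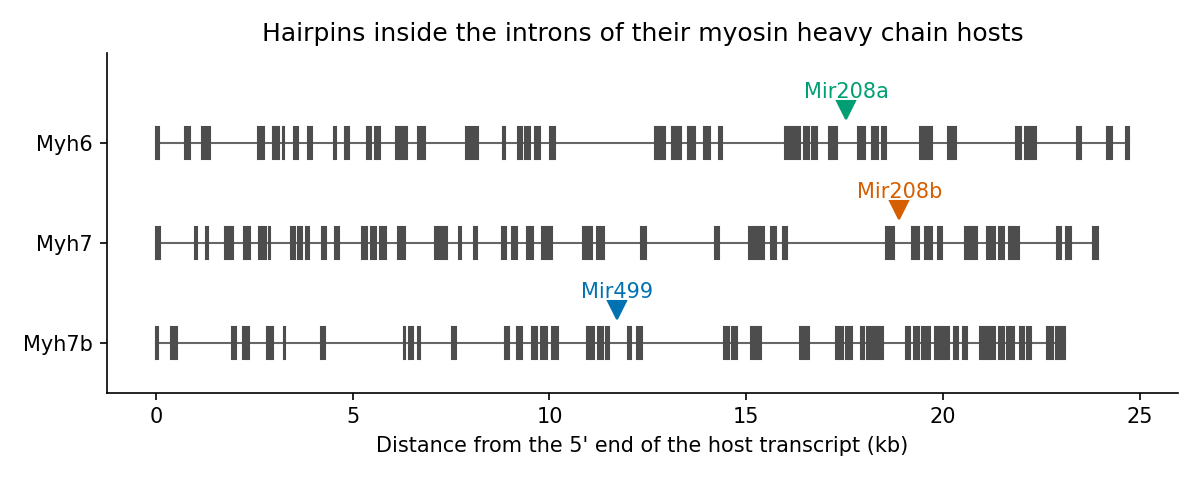
Exons (bars) and introns (line) of the host transcripts Myh6, Myh7 and Myh7b, drawn from each transcript's 5′ end in kb, with a triangle at each hairpin. Mir208a and Mir208b both have 10 exons of their host after them, whereas Mir499 has 23 exons of Myh7b after it.

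Replicate 1 had 15349205 reads and replicate 2 had 18450359, of which 7581366 (49.4%) and 9865298 (53.5%) were assigned to the sense strand of microRNA genes. Levels are given as CPM, counts scaled to 1000000 of these assigned counts. Detection required a minimum of 10 counts per library, which 314 genes reached. The labelled cell type rests here on Mir206, a microRNA restricted to skeletal muscle, which alone took 34.1% of the assigned counts in replicate 1 and 41.7% in replicate 2, while the genes of miR-1a and miR-133a, the other defining markers beside Mir133b, had few uniquely assigned reads.

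All 3 myosin microRNAs were detected, Mir499 and Mir208b at moderate levels and Mir208a far lower. The count of Mir499, hosted by Myh7b, was 4273 in replicate 1 against 3733 in replicate 2. This was 564 CPM and 378 CPM (471 ± 131 CPM, SD, n = 2), rank 86 of all microRNA genes by mean CPM. Mir208b, hosted by the slow myosin gene Myh7, had 1974 and 4888 counts, or 260 CPM in replicate 1 and 495 CPM in replicate 2. Its mean of 378 ± 166 CPM (SD, n = 2) placed it at rank 94. The means of Mir499 and Mir208b lay well within each other's spread between replicates, and the libraries disagreed on which was higher. Mir208a, the cardiac member hosted by Myh6, reached a count of 54 in replicate 1 and of 133 in replicate 2, which is 7.12 CPM and 13.5 CPM. Its mean was 10.3 ± 4.50 CPM (SD, n = 2), at rank 210. In both libraries Mir208a was below Mir499 and Mir208b by more than the spread between replicates. In bulk RNA, fewer cells that express a microRNA cannot be told apart from less of it per cell.

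**Figure D2:**
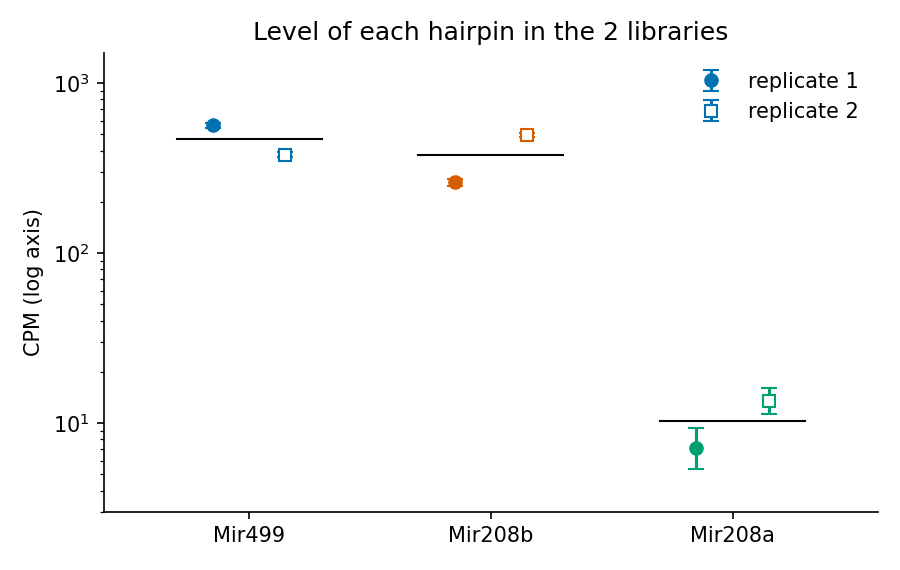
CPM (log axis) of Mir499, Mir208b and Mir208a in replicate 1 (filled circles) and replicate 2 (open squares), with exact 95% Poisson intervals of the counts and a line at the mean. Mir499 is higher in replicate 1 and the other two are higher in replicate 2, and Mir208a lies at least 28.1 times below either in each library.

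The counts were deep enough that counting error was small for the abundant members. The exact 95% Poisson interval for Mir499 ran from 547 to 581 CPM in replicate 1 and from 366 to 391 CPM in replicate 2. For Mir208b the intervals were 249 to 272 CPM and 482 to 510 CPM. Mir208a was less certain, at 5.35 to 9.29 CPM and 11.3 to 15.98 CPM, and still lay above the 0.396 CPM (replicate 1) and 0.304 CPM (replicate 2) that a count of 0 would allow (3 counts). That limit does not cover reads of Mir208b that may have been counted at Mir208a, which was not tested. The Poisson intervals cover the counting error of reads alone and leave out variation between cultures and libraries. PCR copies cannot be separated from independent molecules, so the intervals can be too narrow even for the counting of molecules. No read was assigned to the opposite strand of any of the 3 hairpins in either library.

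Set against other microRNA genes, Mir499 and Mir208b stood above the median of the 314 detected genes (53.1 CPM) and Mir208a stood below it. Of the detected genes, 139 lie in an intron of a gene on their own strand and in no exon of such a gene, with a median of 57.9 CPM. Among these intronic genes Mir499 ranked 38, Mir208b 42 and Mir208a 94. All of them were rare beside the leading muscle microRNA: the 3 hairpins together had 831 CPM in replicate 1 and 887 CPM in replicate 2 (0.0831% and 0.0887% of assigned counts).

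**Figure D3:**
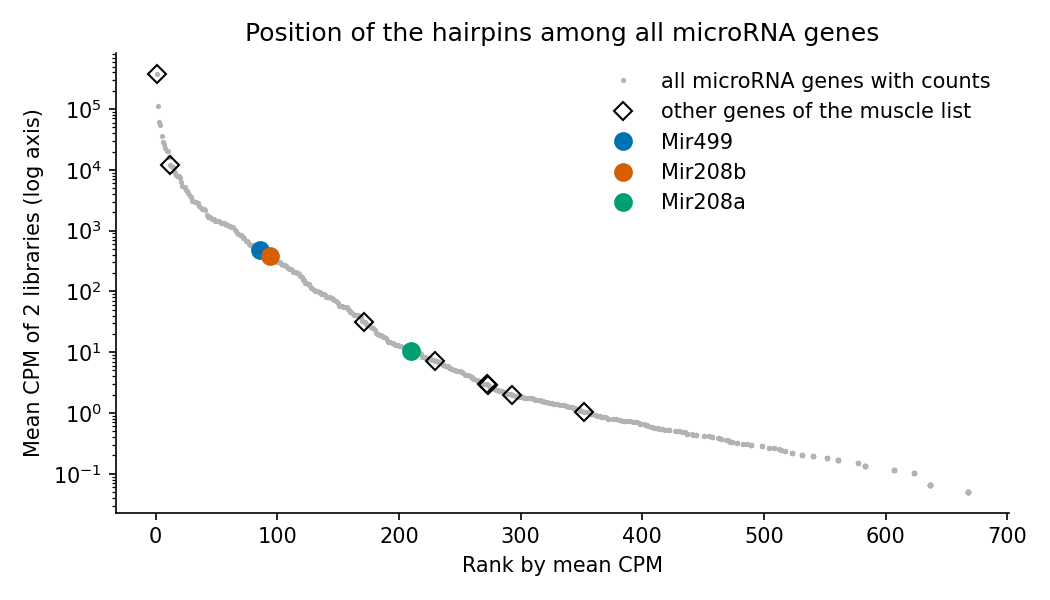
Mean CPM of the 2 libraries (log axis) against rank for every microRNA gene with a count, with Mir499, Mir208b and Mir208a in colour and the other counted genes of the muscle list as open diamonds (Mir133c, at 0 counts, is not drawn). By assigned counts, Mir499 at rank 86 and Mir208b at rank 94 are next after Mir206 and Mir133b within the list, and Mir208a is at rank 210.

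Within each library the members were compared by the ratio of their counts, which needs no scaling between libraries. A read of this assay is a whole short RNA, so the ratio was not divided by hairpin length. Mir499 had 2.16 times the counts of Mir208b in replicate 1 (exact 95% Clopper-Pearson interval 2.05 to 2.28) and 0.764 times in replicate 2 (0.732 to 0.797). Their order therefore reversed between the libraries, and neither interval includes equal counts. The log2 ratio of counts averaged 0.36 ± 1.06 (SD, n = 2), so no order of Mir499 and Mir208b holds across these replicates.

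The ratio of Mir208b to Mir208a was, by contrast, nearly the same in both libraries. There were 36.6 Mir208b counts for each Mir208a count in replicate 1 (95% interval 27.9 to 48.8) and 36.8 in replicate 2 (30.9 to 44.0), a mean log2 ratio of 5.20 ± 0.00546 (SD, n = 2). With 54 Mir208a counts in replicate 1, the values lie closer together than their counting intervals require. Mir499 outnumbered Mir208a 79.1 times in replicate 1 (60.5 to 105.5) and 28.1 times in replicate 2 (23.6 to 33.6), intervals that do not overlap. Mir208a and Mir208b are the members that share a locus, a seed and 19 of 22 bases of the active arm. The number of mismatches allowed in mapping is not stated in these sources, and whether some reads counted at Mir208a came from the far more abundant Mir208b was not tested.

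The make-up of the summed counts shifted between the libraries, while their sum as CPM of assigned counts did not move much. Other denominators were not tried for the sum. Mir499 made up 67.8% of the 6301 summed counts in replicate 1 (95% interval 66.6 to 69.0) and 42.6% of 8754 in replicate 2 (41.6 to 43.7). Mir208b made up 31.3% in replicate 1 (30.2 to 32.5) and 55.8% in replicate 2 (54.8 to 56.9). Mir208a was 0.857% in replicate 1 (0.644 to 1.12) and 1.52% in replicate 2 (1.27 to 1.80). The summed level averaged 859 ± 39.8 CPM (SD, n = 2), a replicate 1 to replicate 2 ratio of 0.937 that is nearer to 1 than that of any member, as Mir499 and Mir208b differed in opposite directions.

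**Figure D4:**
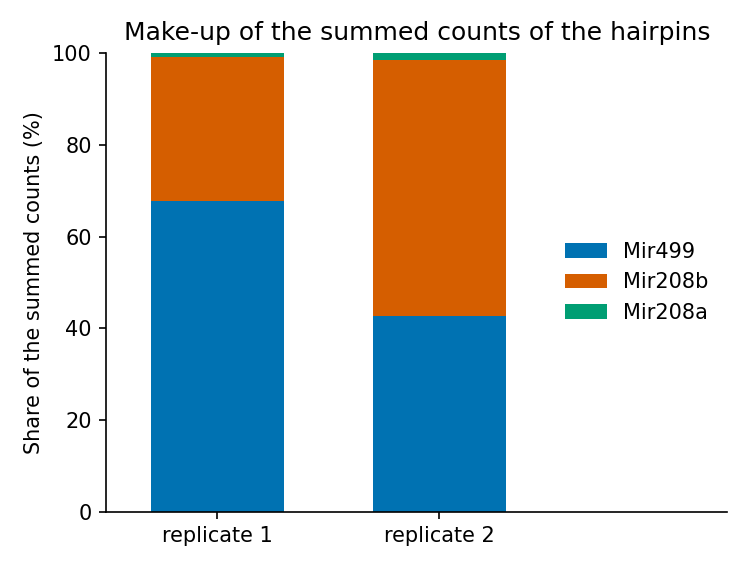
Share (%) of the summed counts of the 3 hairpins taken by Mir499, Mir208b and Mir208a in replicate 1 and replicate 2. Mir499 holds 67.8% in replicate 1 and 42.6% in replicate 2, and Mir208b holds 31.3% and 55.8%.

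The libraries were compared gene by gene with an exact two-sided binomial test of the sense counts against the ratio of library totals, and Benjamini-Hochberg adjustment was made over all 314 detected genes. This test compares the libraries, not conditions, and covers counting error alone. Past an adjusted p of 0.05 were 66.6% of all detected genes, 38.2% higher in replicate 1 and 28.3% higher in replicate 2. Which direction held more genes depended on the scaling: with library totals there were 120 genes higher in replicate 1 and 89 higher in replicate 2, and with Mir206 left out of the totals 104 and 111. Against that background all 3 members also passed, 1 higher in replicate 1 and 2 higher in replicate 2, which is no result particular to them. Mir499 was 1.49-fold higher in replicate 1 (log2 ratio 0.57, 95% interval 0.51 to 0.64; adjusted p = 2.5e-70 in the exact binomial test). Mir208b was 1.90-fold higher in replicate 2 (log2 ratio of replicate 1 over replicate 2 −0.93, interval −1.004 to −0.85; adjusted p = 4.9e-138 in the exact binomial test). Mir208a was 1.89-fold higher in replicate 2 as well (log2 ratio −0.92, interval −1.40 to −0.45; adjusted p = 8.9e-05 in the exact binomial test).

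The size of these differences was ordinary for the pair of libraries. The median absolute log2 ratio over the detected genes was 0.51, and the median signed ratio was 0.09. For Mir499, 142 of 314 detected genes (45.2%) had an absolute log2 ratio at least as large, itself included. For Mir208b the number was 79 (25.2%) and for Mir208a 80 (25.5%). The replicate ratios of Mir208a and Mir208b differed by 0.0077 on the log2 scale, and none of the other 312 detected genes had a ratio that close to the one of Mir208b. That limit is the observed gap itself, and Mir152, with a log2 ratio of −0.938, lay only slightly outside it. Given the wide interval of Mir208a, a much larger gap would have been within its counting error.

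**Figure D5:**
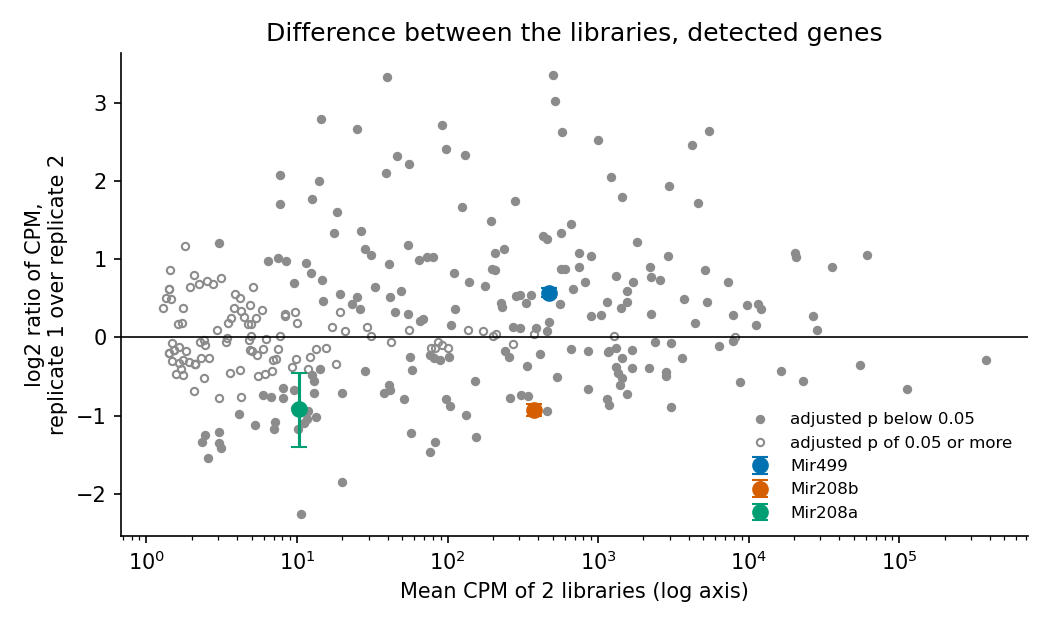
log2 ratio of CPM (replicate 1 over replicate 2) against mean CPM (log axis) for the 314 detected genes, filled where the adjusted p was below 0.05, with 95% intervals for Mir499, Mir208b and Mir208a. Mir499 lies at 0.57, and Mir208b and Mir208a lie at −0.93 and −0.92, all within the range of ratios of the other detected genes.

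A list of muscle microRNAs, chosen like the members with earlier results known, held 12 measured genes, of which 9 were detected. Of these 9, 3 were called higher in replicate 1 and 4 higher in replicate 2, so that most were called, as were 66.6% of all detected genes. The median log2 ratio was 0.02, against 0.09 over all detected genes. By assigned counts, Mir499 and Mir208b were the highest genes of the list after Mir206 and Mir133b, which are made from a shared transcript. Mir206 had 340841 CPM in replicate 1 and 416794 CPM in replicate 2, a log2 ratio of −0.29 that has the sign of Mir208b and Mir208a. Mir133b had 13610 and 10568 CPM, a log2 ratio of 0.36 that has the sign of Mir499. The myosin microRNAs together were 5.74% of the list's counts outside Mir206 in replicate 1 and 7.71% in replicate 2.

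The rest of the list had low counts. Mir486, intronic in the ankyrin gene Ank1, had 31.1 CPM in replicate 1 and 30.7 CPM in replicate 2, and did not pass the test (adjusted p = 0.92 in the exact binomial test). The counts in replicate 1 and replicate 2 were 35 and 96 for Mir1b, 32 and 18 for Mir1a-2, and 23 and 28 for Mir1a-1. Mir1b and Mir1a-2 overlap on opposite strands of the same locus. Both are among the called genes of the list, Mir1b higher in replicate 2 and Mir1a-2 higher in replicate 1. Mir133a-1, with 9 and 28, and Mir133a-2, with 8 and 10, fell short of the minimum of 10 counts in replicate 1. Both share 20 bases with another hairpin. Mir133c had 0 counts in both. All detected genes of the list other than Mir206 and the myosin microRNAs, 5 in number, share 20 bases with another hairpin. The counts of these 5 genes, of Mir133a-1 and of Mir133a-2 are therefore uncertain. Multi-mapped reads (22.0% of replicate 1 and 17.9% of replicate 2) were given to no gene, so these counts can be too low. Low counts of these genes do not show that their microRNAs were absent. No such shared stretch was found for Mir499, Mir208b and Mir208a. The search covered exact matches among annotated microRNA hairpins only, so it does not exclude multi-mapped or misassigned reads for them.

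The detected genes outside the list that were most like each member were found by the Euclidean distance in log2(CPM + 1) over the 2 libraries, which with so few libraries reflects level and little else. Nearest to Mir499 was Mir181a-1 with 563 CPM in replicate 1 and 381 CPM in replicate 2 (distance 0.0094), followed by Mir222 (0.27) and Mir139 (0.35). Nearest to Mir208b was Mir181b-2 with 255 and 431 CPM (distance 0.20), followed by Mir152 (0.38) and Mir193a (0.41). Nearest to Mir208a were Gm26117 with 51 and 124 counts (distance 0.12), Mir199a-1 with 54 and 150 counts (0.16) and Mir1191b with 47 and 138 counts (0.18). Mir181a-1, Mir181b-2 and Mir199a-1 share 20 bases with another hairpin, so their counts are uncertain.

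The direct neighbours of the members in the order of mean CPM are given for scale only. Their means are close to those of the members by construction. Mir499 stood between Mir181a-1 (472 ± 129 CPM) and Mir222 (469 ± 44.95 CPM). Mir208b stood between Mir34b (386 ± 22.8 CPM) and Mir92-1 (375 ± 9.26 CPM). Mir208a stood between Mir1949 (10.7 ± 9.86 CPM) and Mir1191b (10.1 ± 5.51 CPM) (SD, n = 2 for each).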

How the data were processed

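Per the labels' protocols, microRNA libraries were made from total RNA and adapters were trimmed. The deposited notes name the build (mm10) and the annotation (GENCODE M21). Which aligner and counter were run is not given in the sources used here. As deposited by the authors, the values are raw read counts per microRNA gene, 1 table per library, for either strand, the gene's strand and the opposite strand, plus 4 entries for reads given to no gene. In its layout this is a STAR gene count table, which counts uniquely mapped reads. The sense counts were used, and the 4 entries (50.6% of reads in replicate 1 and 46.5% in replicate 2) stayed out of library sizes and tests.

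CPM, ranks, ratios and exact tests were computed with Python 3.11.15, pandas 2.3.3 and SciPy 1.17.1. edgeR 4.0.16 and DESeq2 1.42.0 gave alternative scaling factors only, since 1 group allows no model of a difference. All identifiers were matched to M21, and hairpin sequences in RefSeq (GRCm38.p6) and M21 were identical for the 3 members. The replicates were not 1 library counted again (chi-square 780465, 313 degrees of freedom). By a fixed rule the genes named are the members, the muscle list and the 3 genes nearest to each member. Mir34b, Mir92-1 and Mir1949, which are neighbours in rank, and Mir6923 fall outside that rule and were chosen after their values were seen. The members and lists were chosen with earlier results of these data known. Alternatives were other denominators, scalings, strands, count minimums of 1 and 100, hairpin length, hairpins that share 20 bases left out, and each replicate left out.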

Additional observations from a re-analysis of the deposited data

How the results depend on the processing

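The log2 ratios of Mir499, Mir208b and Mir208a between the libraries kept their sign and stayed past an adjusted p of 0.05 under every alternative that gave a value. They ranged from 0.40 to 0.57 for Mir499, from −1.10 to −0.93 for Mir208b and from −1.10 to −0.92 for Mir208a, with the sizes farthest from those reported when Mir206 was left out of the library totals. With a minimum of 100 counts Mir208a was not tested. Mean levels depend on the denominator by construction: in units of CPM over all reads they were 240 for Mir499, 197 for Mir208b and 5.36 for Mir208a, and over assigned counts without Mir206 they were 752, 622 and 17.0. Per base of hairpin the mean log2 ratio of Mir208b to Mir208a was 5.30. With a replicate left out, the log2 ratio of Mir499 to Mir208b is that of the remaining library, −0.39 in replicate 2 and 1.11 in replicate 1. These are the ratios already given for each library, so they are no separate check. Without hairpins that share 20 bases, which changes both the genes tested and the library totals, the calls among 225 genes were 71 toward replicate 1 and 74 toward replicate 2, and the cause was not tested. Depth limits Mir208a most, with 54 counts in replicate 1.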

Other observations

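Of the other annotated microRNA genes, 1 lies in an intron of a myosin heavy chain gene on its own strand. This is Mir6923, within Myh3, the embryonic skeletal myosin gene, at chr11:67099804-67099875 in mm10. It was looked up after the values of the members had been seen. Mir6923 had 34 counts in replicate 1 and 74 in replicate 2 (5.99 ± 2.13 CPM, SD, n = 2), rank 238, so it was detected at a level not far below that of Mir208a. It was 1.67-fold higher in replicate 2 (adjusted p = 0.018 in the exact binomial test over the detected genes, a test that compares the libraries only). That is the direction seen for Mir208a and Mir208b and not for Mir499. Of all detected genes, 66.6% were called and 28.3% were called higher in replicate 2, so neither the call nor the direction is particular to Mir6923. No read was assigned to its opposite strand.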
